A study of Mus musculus with 2 samples.

Results

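A group of 8 genes for microtubule-associated proteins and doublecortins was followed in the mouse cerebral cortex: Mapt, Map1a, Map1b, Map2, Map4, Map6, Dcx and Dclk1. Members were taken by gene symbol and make up 8 of the 55536 genes and 93 of the 141862 transcripts in the deposited tables. The RNA came from the left cortex of 2 male B6CASTF1/J mice, an F1 hybrid strain, 36 days old, and total RNA was sequenced. Each mouse gave 1 library from 300 ng of RNA, with ERCC spike-ins (synthetic RNAs added to the sample) and a spike-in profile meant for stranded libraries with reduced ribosomal RNA. The mice are biological replicates 1 and 2 in the labels and are called mouse 1 and mouse 2 here. One donor identifier stands in the labels of both animals, so the spread between them is a spread between 2 libraries that may not stand for the strain. No treatment, other age or other tissue was compared, and no p-value is given because 1 mouse against 1 mouse allows no exact permutation p below 1.

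Microtubule-associated proteins bind along the microtubule wall and set how stable and how closely bundled microtubules are. Several are known to change form as neurons mature. Map2 passes from a short juvenile form to long dendritic forms, Mapt (tau) takes up extra exons, and Map1b, Dcx and the long doublecortin-bearing form of Dclk1 are prominent in growing and migrating neurons. Shares of each gene's transcripts, called isoform shares below, are the percent of the gene's TPM (a transcript level corrected for length and scaled to a fixed sum per library) that each transcript holds.

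The exons that define these forms are shown first, because the transcript classes below rest on them. Coordinates are mm10 and sequences come from the GENCODE M21 transcripts. The first set is the alternative exon of 93 nucleotides that encodes one of the microtubule-binding repeats, at chr1:66431527-66431619 (plus strand) in Map2 and chr9:110072613-110072705 (plus strand) in Map4. Capitals mark the 59 of 93 positions with the same base in both genes.
Map2 repeat exon: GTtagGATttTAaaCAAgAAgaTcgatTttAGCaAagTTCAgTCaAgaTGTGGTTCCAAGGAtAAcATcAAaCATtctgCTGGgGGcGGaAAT
Map4 repeat exon: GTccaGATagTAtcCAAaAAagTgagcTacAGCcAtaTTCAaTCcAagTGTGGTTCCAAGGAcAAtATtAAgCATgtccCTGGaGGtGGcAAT

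The second set is the pair of exons, each of 87 nucleotides, that lengthen the amino-terminal part of tau. They lie at chr11:104287123-104287209 and chr11:104289908-104289994 on the plus strand, and have the same base at 30 of 87 positions.
Mapt insert exon 1: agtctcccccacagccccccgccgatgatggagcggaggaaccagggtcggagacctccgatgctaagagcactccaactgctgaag
Mapt insert exon 2: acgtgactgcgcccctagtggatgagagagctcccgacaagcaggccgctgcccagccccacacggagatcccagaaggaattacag

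The third set shows where Dcx and Dclk1 resemble each other and where Dclk1 starts its kinase-only form. The coding part of the last coding exon of Dcx-201 (chrX:143863554-143863607, minus strand) is set beside that of Dclk1-203 (chr3:55466573-55466626, plus strand), the Dclk1 transcript that ends before the kinase. Both are 54 nucleotides long, stop codon left out, and capitals mark the 38 positions with the same base.
Dcx last coding exon: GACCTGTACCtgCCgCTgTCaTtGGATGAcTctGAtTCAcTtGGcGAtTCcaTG
Dclk1 short form last coding exon: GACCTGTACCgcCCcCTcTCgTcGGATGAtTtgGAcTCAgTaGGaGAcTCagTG
The first coding bases of Dclk1-202, a kinase-only transcript, lie at chr3:55462064-55462082 on the plus strand.
Dclk1 kinase form first coding exon: atgttagagctcatagaag

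The libraries held 29915463 expected counts (estimated reads per gene) in mouse 1 and 27988085 in mouse 2. Of 22015 nuclear protein-coding genes, 12889 had a TPM of 1 or more in each mouse. The markers checked for mature neurons (5 of 5 members, among them Snap25 and Slc17a7) reached that level. Spike-ins took 0.407% and 0.322% of the counts. The 8 genes together held 0.706% of counts in mouse 1 and 0.723% in mouse 2.

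All 8 genes reached a TPM of 1 in both mice, and their levels spanned from 12.1 to 478. Map2, which spaces and stabilizes dendritic microtubules, was the highest of the 8, at 464.6 in mouse 1 and 491.4 in mouse 2 (478 ± 18.9, SD, n = 2), rank 57 among the 12889 expressed protein-coding genes. Dclk1, a kinase gene with doublecortin domains in its long forms, followed at 423.3 and 387.1 (405 ± 25.6), rank 75. Neither mouse's Dclk1 value reached the lower of the Map2 values, so the order of these 2 genes held in both mice.

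Map1b and Map1a, large related proteins known for the growing and the mature axon and dendrite respectively, stood at nearly the same level. Map1b was 283.7 and 289.2 (286 ± 3.93) and Map1a 261.8 and 287.6 (275 ± 18.2), and the values of the 2 genes overlapped. Mapt, the axonal tau gene, and Map4, a more widely expressed relative, overlapped as well, with 152.6 and 162.1 for Mapt (157 ± 6.72) and 162.3 and 155.7 for Map4 (159 ± 4.70). Map6, which protects microtubules from cold and drug-induced disassembly, was 59.7 and 59.4 (59.6 ± 0.191).

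Dcx, the doublecortin gene of young migrating neurons, was the lowest at 9.80 in mouse 1 and 14.5 in mouse 2 (12.1 ± 3.32). Its rank was 7481, so 58.0% of expressed protein-coding genes stood above it. Since this is bulk tissue, fewer cells of a type and less RNA per cell cannot be told apart in any of these levels.

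**Figure D1:**
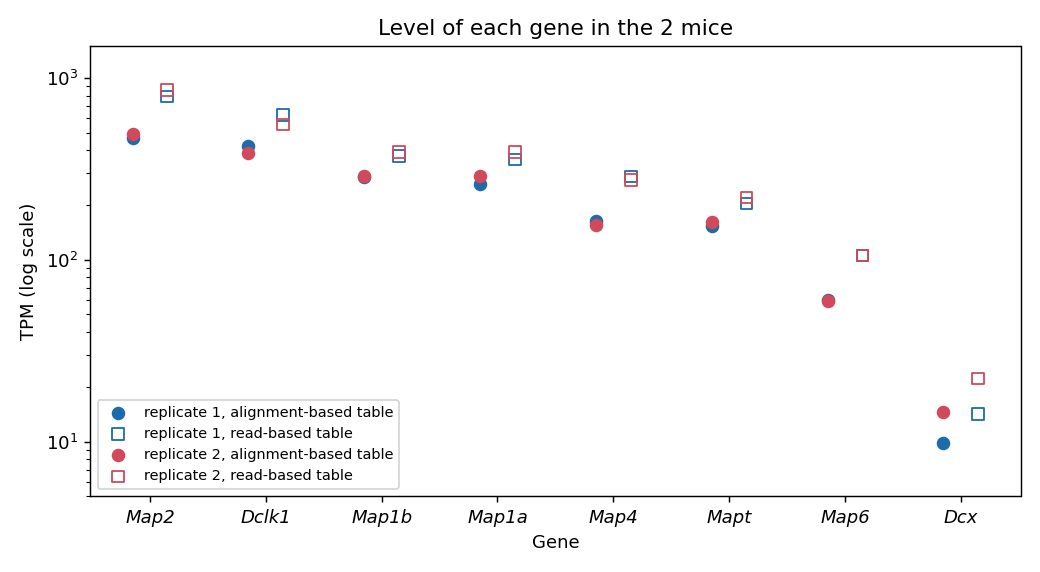
TPM (log axis) of the 8 genes in each mouse, from the alignment-based table (filled circles) and the read-based table (open squares). Both tables put the genes in the same order by mean, from Map2 to Dcx, and every gene is higher in the read-based table.

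The authors also deposited transcript levels estimated from the reads without an alignment, called read-based here, beside the alignment-based table used above. Summed per gene, it put the more abundant Map2 at 823 ± 46.9 (SD, n = 2), Dclk1 at 588 ± 49.3, Map1b at 382 ± 16.0 and Map1a at 374 ± 25.0. Below them stood Map4 at 281 ± 7.99, Mapt at 212 ± 11.7, Map6 at 106 and Dcx at 18.2 ± 5.67. The order of the means was the same in both tables. The read-based values were 1.33 to 1.77 times the alignment-based ones, against a median of 1.55 for expressed protein-coding genes, so the upward step was shared with other genes. The overlap of Mapt and Map4 did not hold in the read-based table, where Map4 stood at 286.5 and 275.2 and Mapt at 203.5 and 220.1.

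Pairs of these genes were then compared within each mouse, as differences of log2(TPM + 1), first the late Map1a with the early Map1b. Map1a over Map1b was -0.12 in mouse 1 and -0.01 in mouse 2 (-0.06 ± 0.08), so the late and the early member of this pair were close to equal in level. Map2 over Map1b was 0.74 ± 0.04, and Mapt over Map1b was -0.86 ± 0.04, the same sign in both mice. Map1b thus stood below Map2 and above Mapt at 36 days.

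Map2 over Dcx was 5.43 in mouse 1 and 4.99 in mouse 2 (5.21 ± 0.31), or 37.0-fold on the scale of TPM + 1. Dclk1 over Dcx was 5.30 and 4.65 (4.97 ± 0.46), or 31.4-fold on the same scale. Both ratios were lower in mouse 2, where Dcx was higher. For Dclk1 over Dcx, the lower Dclk1 level of mouse 2 added to the gap. The read-based table gave 1.10 for Map2 over Map1b and -0.41 for Mapt over Map4, where the alignment-based table gave -0.02 ± 0.10 for the latter.

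The mice themselves differed little in 6 of these genes, and more in Dcx and Dclk1. Ratios of mouse 2 over mouse 1 were taken on counts scaled by edgeR's TMM method (a library scaling that trims extreme genes), with a 95% interval that covers counting error only. A log2 ratio over 0.5 in size was seen in 0 of the 8 genes, against 2.24% of the 11715 protein-coding genes whose mean count was 100 or more. Over 1 in size it was again 0 of 8, against 0.23%. The median log2 ratio was -0.03 for the 8 genes and -0.03 for all 11715.

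Dcx had 1146 counts in mouse 1 and 1532 in mouse 2, a log2 ratio of 0.45 (interval 0.34 to 0.57). Its deposited TPM bounds were 8.76 to 10.5 in mouse 1 and 13.1 to 15.2 in mouse 2, and did not overlap. Such bounds did not overlap for Map2, Map1a and Dclk1 either, although the log2 ratio was 0.01 for Map2 and 0.06 for Map1a. Non-overlap of these bounds therefore did not set Dcx apart. A ratio at least as large was found in 3.08% of the 11715 genes, and in 1.17% of 4351 genes with a mean count within 2-fold of that of Dcx. The read-based counts gave 0.44. With library totals in place of TMM the ratio was 0.51 and with spike-in totals 0.85, both past 0.5, but measured from the median of all genes it was 0.48 under each of these scalings.

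Dclk1 had 35455 counts in mouse 1 and 29767 in mouse 2, a log2 ratio of -0.22 (interval -0.24 to -0.20), and -0.26 in the read-based table. A ratio of this size was found in 18.4% of all 11715 genes and in 10.5% of 143 genes of similar count. Spike-in totals turned its sign, to 0.18, because that scaling moved the median of all genes by 0.40, and relative to the median Dclk1 stayed at -0.19. Map4 was -0.14 (interval -0.18 to -0.09) and Map1a 0.06 (0.04 to 0.08). Map4 too was positive under spike-in totals, at 0.26. Map2 (0.01), Map1b (-0.02), Mapt (-0.03) and Map6 (-0.04) had ratios whose sign changed with the scaling or the table.

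**Figure D2:**
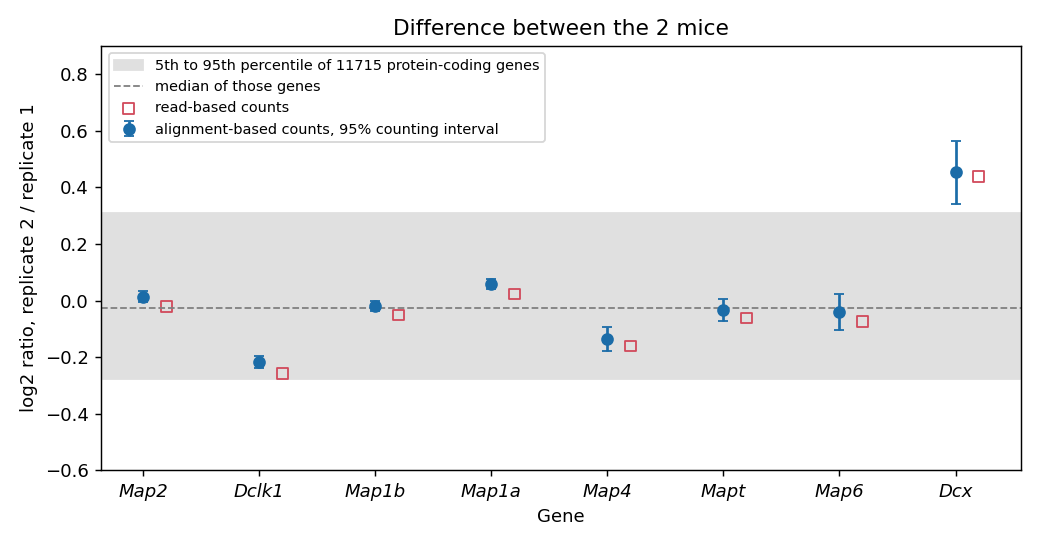
Log2 ratio of mouse 2 (replicate 2) over mouse 1 (replicate 1) for each gene, from alignment-based counts with 95% counting intervals (circles) and read-based counts (squares); the grey band runs from the 5th to the 95th percentile of 11715 protein-coding genes. Dcx at 0.45 lies above the band, which ends at 0.31, and the other 7 genes lie inside it.

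Markers of several cell types also differed between the mice, and their part in the Dcx and Dclk1 differences was not tested. Of 8 other markers of immature neurons, 5 were detected at a TPM of 1 in each mouse, and those 5 were higher in mouse 2 (median log2 ratio 0.23), or 4 of them with DESeq2 size factors. The log2 ratios of the 5 ran from 0.03 to 0.31. The summed level of the 8 markers was 115 TPM in mouse 1 and 144 in mouse 2, and Nnat made up most of both sums. Nnat went from 89.0 to 112.6 TPM and the transcription factor gene Sox4 from 7.90 to 9.67, while Draxin and Eomes stayed below 1. Markers of the olfactory bulb and the migratory stream, which holds Dcx-bearing neuroblasts, were near 0 (1 of 5 detected), and had a summed level of 3.30 in mouse 1 and 7.55 in mouse 2. The 3 of them with a mean count of 20 or more were higher in mouse 2 under all 4 scalings of the alignment-based counts, with Sp8 at 59 and 139 counts and Trh at 39 and 103 counts. No marker of either list was at 0 in a mouse. Of 4 markers of the dentate gyrus, another place with Dcx-bearing young neurons, 2 were detected, and none was at 0. Their summed level was 11.9 TPM in mouse 1 and 16.2 in mouse 2. Calb2 made up most of both sums and the rise lay in it, at 7.67 and 11.9 TPM (log2 ratio 0.57). Prox1 stood at 3.75 and 3.85 (log2 ratio 0.00). The other markers of this list had at most 8 counts in a mouse and moved in opposite directions in TPM.

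Oligodendrocyte markers moved the other way, with 5 of 5 lower in mouse 2 at a median log2 ratio of -0.36 (3 of 5 were higher with spike-in totals, at a median of 0.03). They had a summed level of 1220 in mouse 1 and 1000.3 in mouse 2. The myelin gene Mbp stood at 576.4 TPM in mouse 1 and 496.8 in mouse 2. Mature neuron markers had a median log2 ratio of -0.10 and astrocyte markers (4 of 4 detected) one of -0.08, and both medians were positive with spike-in totals.

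The transcripts of the 8 genes comprise 43 complete coding models, 20 incomplete coding models (fragments whose coding part runs off an end) and 30 non-coding ones. Of the 93, 30 held at least 5% of their gene's TPM in both mice. In the alignment-based table the same transcript led in both mice for 7 of 8 genes, the exception being Dclk1. In the read-based table Dclk1-204 led Dclk1 in both mice, and Map6 changed its leader, from Map6-205 in mouse 1 to Map6-201 in mouse 2. The same transcript led in both tables for 6 of 8, not for Map6 and Dclk1. Only 2 transcripts, Dclk1-208 and Map1b-202, shifted by over 5 percentage points between the mice, whereas 11 differed by over 10 points between the tables. For isoform shares the choice of table therefore moved more transcripts than the choice of mouse. Coding transcripts with at least 75% of the gene's longest coding length held most of the TPM in both mice for 4 of 8 genes, Map1a, Map1b, Map6 and Dcx. That count was 3 with read-based shares, 6 with shares of expected counts and 5 with a minimum of 50% of the longest length. Map1a and Dcx have no annotated coding transcript under the 75% length, and Map1b has 1, of 61 codons. For these genes the annotation leaves little room for a short coding share.

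**Figure D3:**
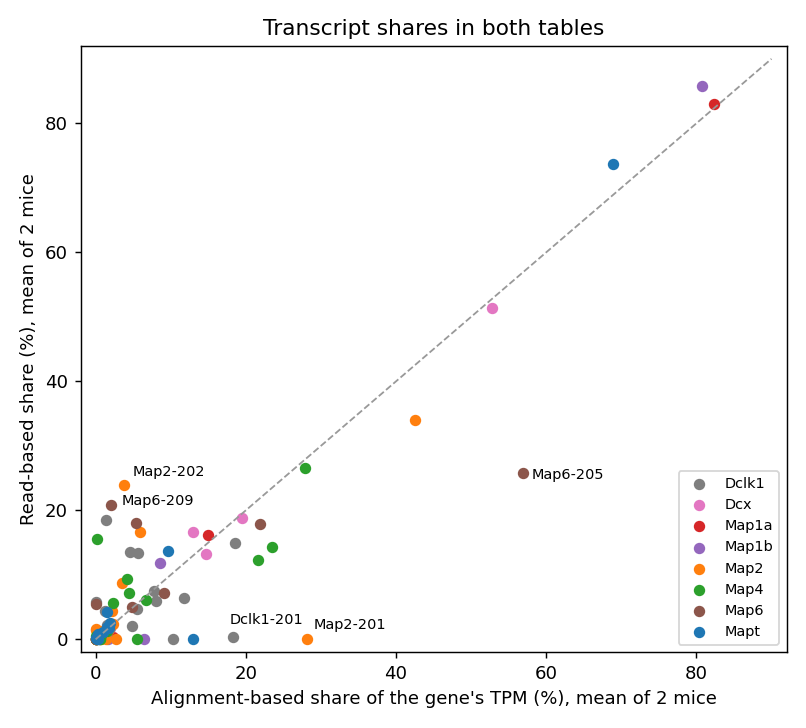
Share of the gene's TPM on each of the 93 transcripts, alignment-based (horizontal axis) against read-based (vertical axis), each the mean of 2 mice, with colours for genes; the dashed line marks equal shares. Map2-201, Dclk1-201 and Map6-205 lie far below the line, and Map2-202 and Map6-209 above it.

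**Figure D4:**
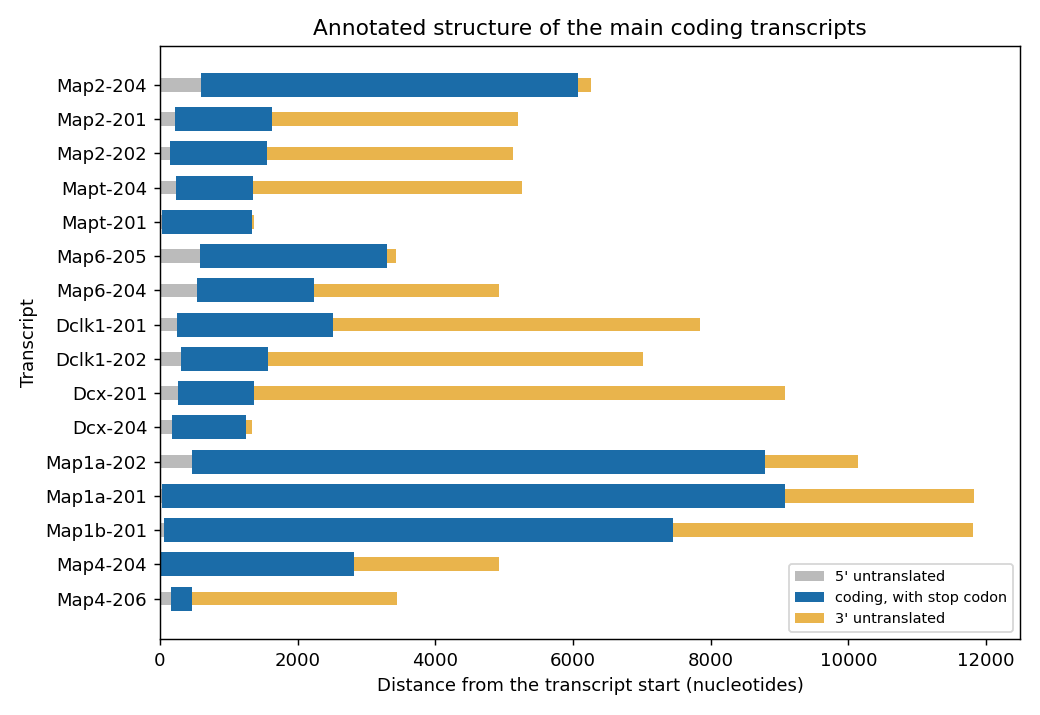
Annotated lengths in nucleotides of the 5′ untranslated, coding and 3′ untranslated parts of the main coding transcripts, drawn to scale from the transcript start. Map2-204 and Mapt-201 end soon after the stop codon, whereas Map2-201, Mapt-204 and Dcx-201 carry 3′ untranslated parts of 3574, 3903 and 7709 nucleotides.

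Map2 (ENSMUSG00000015222.17, chromosome 1, 66175273 to 66442583, plus strand) carried its long and its short form at comparable levels. The long form is Map2-204, of 1828 codons, the only annotated transcript of at least 1000 codons and the one that encodes the mature dendritic protein. It held 42.7% of Map2 TPM in mouse 1 and 42.3% in mouse 2 (42.5% ± 0.25), which is 198.2 and 207.9 TPM. Complete short transcripts, of 466 to 498 codons, are of the juvenile kind except for those with the repeat exon. They held 35.8% and 35.6% (35.7% ± 0.131), or 166.4 and 175.1 TPM. The mice were alike in both classes, which differ from each other by more than the spread between mice.

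The short class was made up mostly of Map2-201 (28.1% ± 0.25) in the alignment-based table. In the read-based table Map2-201 stood at 0.000385 TPM in mouse 1 and 0.00851 in mouse 2, and Map2-202 held 24.8% and 23.2%, against 3.74% ± 0.07 in the alignment-based one. Both encode 467 codons and share 5001 nucleotides, with 194 and 124 nucleotides of their own, so the juvenile coding sequence was found in both tables under different names. Long and complete short forms were 33.9% and 29.1% in the read-based table, the same order.

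Fragments change this balance. All coding transcripts under 1000 codons, incomplete models included, made up 51.7% ± 0.21, and 61.6% in the read-based table, more than the long form. Among those fragments Map2-218 (5.97% ± 0.35, and 16.7% read-based) carries 35 codons only, and Map2-216 (3.57%, and 8.74% read-based) carries 608 codons that lie within the exon particular to the long form. With complete coding transcripts alone, long was 54.3% and short 45.7%. The 3′ ends also differ: Map2-204 is annotated with 181 nucleotides after its stop codon and Map2-201 with 3574, of which 3393 are absent from Map2-204. The effect of this on the shares was not tested.

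The repeat exon shown above was present in few Map2 transcripts. Those with it held 2.36% in mouse 1 and 2.32% in mouse 2 (2.34% ± 0.03), all of it in Map2-207 of 498 codons, since the other 3 such models were listed at 0. The read-based share was also 2.34%. Complete transcripts without it held 75.9% ± 0.354.

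Mapt (ENSMUSG00000018411.17, chromosome 11, 104231390 to 104332090, plus strand) was dominated by Mapt-204, of 372 codons, which has neither insert exon. It held 70.5% in mouse 1 and 67.4% in mouse 2 (68.9% ± 2.26), and 73.8% in the read-based table. Mapt-201, of 430 codons with both inserts, held 10.1% and 9.12% (9.62% ± 0.71), and 13.7% in the read-based table. Coding transcripts without an insert held 70.2% ± 1.68 of Mapt TPM, against 11.1% ± 0.295 with both, and the gap was many times the spread between mice. In the read-based table the mice differed more in the class with both, at 13.1% in mouse 1 and 18.5% in mouse 2 (26.7 and 40.8 TPM).

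Tau with 1 insert was represented only by incomplete models, chiefly Mapt-207, a fragment of 293 nucleotides. It held 12.5% and 13.5% (13.0% ± 0.76) in the alignment-based table and was listed at 0 in the read-based one. With complete coding transcripts alone the share without an insert was 86.2%. In the annotation, 3871 nucleotides of the 3′ untranslated part of Mapt-204 are not in Mapt-201, which has 32 nucleotides after its stop codon, and the effect of this on the shares was not tested. The longest form, of over 700 codons and known from peripheral neurons, held 1.49% ± 0.41.

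Map4 (ENSMUSG00000032479.15, chromosome 9, 109931460 to 110083955, plus strand) spread its TPM over short and long models. Map4-206, which encodes 99 codons, led with 27.5% and 28.2% (27.9% ± 0.47), followed by the non-coding Map4-209 (23.4% ± 0.93) and Map4-204 of 933 codons (22.4% and 20.9%, 21.7% ± 1.12). Coding transcripts with the repeat exon held 39.1% ± 0.640 of TPM. Complete transcripts with it held 31.3% ± 0.797 and complete ones without it 30.2% ± 0.465, but the latter were nearly all Map4-206, whose coding part is short. By counts, which favour long transcripts, coding models of at least 75% of the longest length held 57.4%. Map4-207, a non-coding model of 442 nucleotides, was 0.20% alignment-based and 15.6% read-based.

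Map1a (ENSMUSG00000027254.13, chromosome 2, 121289600 to 121310832, plus strand) and Map1b (ENSMUSG00000052727.6, chromosome 13, 99421446 to 99516540, minus strand), the largest proteins of the group, each had one dominant coding transcript. Map1a-202, of 2776 codons, held 82.7% and 82.1% (82.4% ± 0.46), and Map1a-201, of 3014 codons, held 15.1% and 14.8% (14.9% ± 0.21). The read-based shares were 83.0% and 16.2%. Map1a overlaps Ppip5k1 on the opposite strand, a gene at 53.8 and 55.6 TPM, and whether the counting used strand is not given in the sources used here, so reads of the overlap may have been assigned to either gene.

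Map1b-201, of 2464 codons, held 80.3% and 81.2% (80.8% ± 0.63). The non-coding Map1b-202 went from 11.4% in mouse 1 to 5.69% in mouse 2, and the non-coding Map1b-206 from 4.04% to 8.83%. They share 1542 nucleotides, and the read-based table put Map1b-206 at 0 TPM in mouse 1 and 6.47e-10 in mouse 2, and Map1b-202 at 11.0% and 12.6%. The exchange between mice was thus seen in 1 of the 2 tables.

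Map6 (ENSMUSG00000055407.14, chromosome 7, 99267447 to 99337137, plus strand) was carried mainly by its longest form. Map6-205 and Map6-201 both encode 906 codons and differ by 1 nucleotide in length, and together they held 60.5% and 63.9% (62.2% ± 2.41). Their separate values are not resolved: in mouse 1 the deposited bounds ran from 1.41 to 31.7 TPM for Map6-205 and from 1.49 to 31.9 TPM for Map6-201. The form of 568 codons, Map6-204, held 23.0% and 20.7% (21.8% ± 1.63) and the form of 306 codons held 9.12% ± 1.26. In the read-based table the 906-codon share was 43.8% and the non-coding Map6-209 took 22.3% and 19.2%, against 4.08% and 0% in the alignment-based table.

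Dcx (ENSMUSG00000031285.14, chromosome X, 143855842 to 143933311, minus strand) was led by Dcx-201, a transcript of 9074 nucleotides that encodes 366 codons. It held 54.6% and 51.0% (52.8% ± 2.52), or 5.35 TPM in mouse 1 and 7.40 in mouse 2. Dcx-204, of 360 codons and without the long 3′ untranslated part, held 13.0% ± 0.96. No shorter coding class was seen, since every coding Dcx transcript had at least 75% of the longest coding length.

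The rest of Dcx TPM lay on 2 retained-intron models, Dcx-206 (18.7% and 20.2%) and Dcx-205 (13.0% and 16.4%). Together they made up 31.7% and 36.6% (34.1% ± 3.50), and 32.0% in the read-based table. By expected counts, which favour long transcripts such as Dcx-201, their share was 16.2% ± 2.12. Over 7504 genes with such models the median share of TPM was 11.9%, and 14.2% of those genes had a higher share than Dcx. Among the other 7 genes the retained-intron share ran from 1.52% in Map4 to 6.99% in Dclk1, with no such model for Map1a. Both kinds of Dcx transcript were higher in mouse 2: Dcx-206 stood at 1.83 and 2.93 TPM.

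Dclk1 (ENSMUSG00000027797.15, chromosome 3, 55242364 to 55539068, plus strand) expressed mostly transcripts that encode the kinase without the doublecortin domains. These held 60.3% in mouse 1 and 52.7% in mouse 2 (56.5% ± 5.40), or 255.4 and 204.0 TPM. Transcripts with both parts, the long form known from developing neurons, held 18.7% and 20.5% (19.6% ± 1.25), or 79.3 and 79.4 TPM. The doublecortin part alone, in Dclk1-203, held 4.36% and 5.23% (4.80% ± 0.613).

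The lower Dclk1 level in mouse 2 lay in the kinase-only class. Its log2 TPM ratio was -0.32 (read-based -0.28). That of the class with both parts was 0.00 (read-based 0.04), and that of Dclk1-203 was 0.13 (read-based 0.32). On this scale the median over all 11715 genes was 0.05. These are values of 1 mouse over 1 mouse, and the difference between the classes was not tested. In both mice and both tables the doublecortin-bearing transcripts of Dclk1 summed to a higher level than all of Dcx.

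Within the classes the names are less certain than the sums. Dclk1-202 (18.5% ± 0.81), Dclk1-211 (11.8% ± 1.03), Dclk1-215 (8.10% ± 0.86), Dclk1-207 (7.82% ± 1.79) and Dclk1-213 (5.64% ± 0.21) carried most of the kinase-only share. Dclk1-208, also kinase-only, went from 7.95% to 1.30%, but it shares 4264 nucleotides with Dclk1-207, which went from 6.55% to 9.08%. The deposited TPM bounds of Dclk1-208 in the 2 mice overlapped (31.6 to 58.2 and 4.21 to 32.5), and the read-based table gave it 14.3% and 12.7%. Dclk1-201, with both parts and 756 codons, held 18.3% ± 1.88 in the alignment-based table and 0.43% in the read-based one. Dclk1-204, with both parts and 739 codons, held 1.35% ± 0.64 and 18.5% in the same tables, and the pair shares 7796 nucleotides. The sum of the pair was 19.6% and 18.9%, close in both tables. Dclk1-214, an incomplete model of 413 nucleotides, held 10.4% ± 2.21 and was listed at 0 in the read-based table. It covers at least 25% but under 50% of the doublecortin part, and with it the share of transcripts with any doublecortin part was 34.8%, against 24.4% without it.

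**Figure D5:**
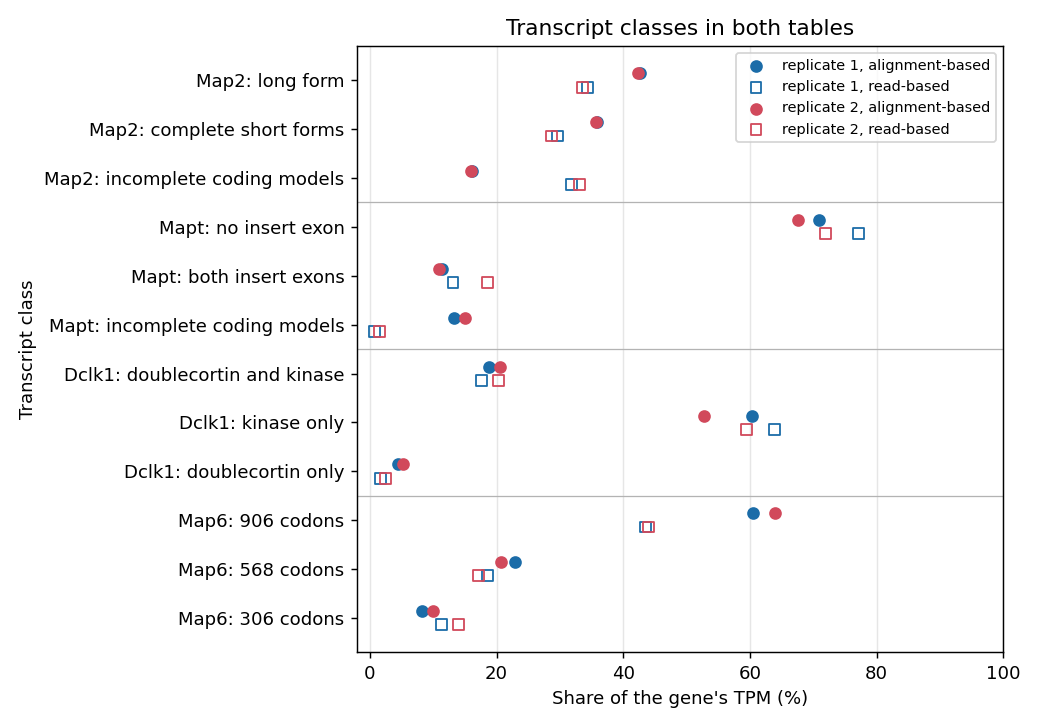
Share of the gene's TPM on transcript classes of Map2, Mapt, Dclk1 and Map6, for each mouse in the alignment-based (circles) and read-based (squares) tables. The 2 mice lie close together in most classes, and the tables differ most for incomplete Map2 and Mapt models and for the 906-codon class of Map6.

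Other microtubule genes set the level of the 8 in context. Of 16 further structural microtubule-associated proteins, 15 were detected at that level, and the median was 38.6 in mouse 1 and 40.5 in mouse 2. The highest were Map1lc3a (138 ± 11.1), known for its part in autophagy, and Map7d1 (120 ± 9.70), both below Mapt. The lowest were Map10 (2.14 ± 0.28) and Map7d3, which had 0 and 2 counts.

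Stathmins, which bind free tubulin and promote disassembly, were all 4 detected, with medians of 263 and 241, led by Stmn1 (443 ± 12.2) and Stmn3 (276 ± 20.7) and ending with Stmn2 (228 ± 9.89) and Stmn4 (129 ± 1.03). Proteins of the plus and minus ends were detected in 10 of 10 (medians 59.2 and 62.4), from Mapre2 (108 ± 0.742) and Clasp2 (99.4 ± 0.53) down to Mapre1 (35.5 ± 3.38) and Camsap3 (15.8 ± 2.04). Severing enzymes were low, with 5 of 6 detected and medians of 12.9 and 14.2. Katnal1 (32.4 ± 2.40) and Spast (24.1 ± 0.21) led them, and Fign (1.93 ± 0.40) and Fignl1 (0.27 ± 0.01) came last.

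Kinases that phosphorylate tau and its relatives, with the activators of Cdk5, were detected in 10 of 10 (medians 58.3 and 63.5). The Cdk5 activators Cdk5r2 (178 ± 12.7) and Cdk5r1 (141 ± 1.57) were the highest of that list, and Mark1 (43.7 ± 1.67) and Mark4 (34.2 ± 0.13) the lowest. Of the 5 lists, 4 had medians below the level of Map6 or near it, and the stathmins stood near Map1a and Map1b.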

How the data were processed

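Total RNA of 2 cortex samples in 1 group was analysed from the deposited tables. Members and lists were chosen with earlier results of these data known. The authors deposited expected counts (estimated reads, not normalized), TPM and, for each transcript, its percent within the gene, per the file headers, from a transcriptome alignment. The deposited lower and upper TPM bounds were used as a signal with no stated level; 7 of 16 member values lie outside their own bounds. A further deposited table holds estimated counts and TPM quantified from the reads. The build is mm10 with GENCODE M21, per the deposited listing. Aligner, quantifier and strand setting: not given in the sources used here. Estimated counts split reads between overlapping models, and TPM depends on annotated length, so shares of near-identical transcripts are uncertain.

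Expected counts were rounded, filtered (filterByExpr) and scaled by TMM in edgeR 4.0.16 (R 4.3.3), with a prior count of 0.5 and exact binomial 95% counting intervals. Ratios were counted past 0.5 and 1 among nuclear protein-coding genes whose mean count was 100 or more. Log2 levels used a pseudocount of 1. Transcript classes came from the GENCODE M21 coding exons; for Dclk1 the longest coding sequence was divided in 3 equal parts, and at least 50% of the first or last part had to be present. The named genes were the 8 members, their transcripts with at least 5% in both mice or leading in the read-based table, and the highest and lowest 2 of each list. Transcripts named below 5% were chosen after their values were seen. On simulated data for the comparison of replicate 2 with replicate 1 (12530 genes), 96% of 100 genes changed by 0.8, 100% of 100 genes changed by 1.5 and 1.10% of unchanged genes passed 0.5. The spread in the simulation was set in advance and not estimated from these libraries, so these shares depend on that setting. In the real libraries 2.24% of 11715 genes passed 0.5. Alternatives were DESeq2 1.42.0 size factors, library and spike-in totals, read-based values, other thresholds, pseudocounts and denominators, and each mouse alone. Other steps used scipy 1.17.1, pandas 2.3.3 and numpy 2.4.6 in Python 3.11.15, with plots by matplotlib 3.10.9. Depth was 29915463 and 27988085 expected counts. Some items under the naming rule are not reported here but enter the list values.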

Additional observations from a re-analysis of the deposited data

How the results depend on the processing

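Of the 8 genes, 0 differed between mice by over 0.5 on the log2 scale with TMM, and 1 (Dcx) did with library totals and 1 (Dcx) with spike-in totals. Over all genes those scalings gave 140 higher and 122 lower ratios past 0.5 with TMM, 230 and 103 with library totals, 2588 and 28 with spike-in totals, and 106 and 143 with DESeq2 size factors. Transcript shares moved with the table and the denominator. The long Map2 form was 33.9% in the read-based table, 55.7% by expected counts, 45.1% of coding and 54.3% of complete coding transcripts. Map2 transcripts under 1000 codons were 61.6%, 42.1%, 54.9% and 45.7% under the same settings. Mapt without inserts was 75.7%, 94.3%, 74.3% and 86.2%. Dclk1 with both parts was 36.1% by counts, 21.2% of coding and 23.9% of complete coding transcripts, and its kinase-only share was 68.6% of the last. The 906-codon Map6 share was 43.8% read-based, 58.1% by counts, and 66.8% of coding and of complete coding transcripts. The cause was not tested beyond the change of denominator. The setting with complete coding transcripts only, and that with at least 25% of a Dclk1 part, were chosen after seeing the data; the latter moved the share with any doublecortin part from 24.4% to 34.8%. No paired analysis was possible because both samples belong to 1 group. With 2 libraries no spread within either mouse is known, and counting intervals cover counting error only.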
